A study of Homo sapiens with 36 samples.

Results

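CPSF5 and CPSF6, partner subunits of cleavage factor Im (CFIm), were compared window by window and gene by gene on the RNA of HEK293T cells. The members were all windows listed as enriched for either protein, joined on the window identifier, which gave 188891 of the 601384 distinct windows listed for the 9 proteins of the series. The CPSF5 list held 38826 windows in 6904 genes and the CPSF6 list 155533 windows in 9519 genes. At least 1 of the lists named 10072 of the 11302 genes of the series.

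CFIm helps to choose where the 3' end of an mRNA is cut and polyadenylated. CPSF5, the product of NUDT21, forms a dimer that recognises UGUA in RNA, and CPSF6 or its relative CPSF7 joins that dimer through an RNA recognition motif and carries an RS-like domain of the kind found in splicing factors. Loss of CPSF5 or CPSF6 is known to shift many mRNAs towards poly(A) sites nearer to the stop codon.

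Binding was mapped by enhanced crosslinking and immunoprecipitation (eCLIP), in which proteins are crosslinked to RNA, the RNA is trimmed with RNase, and fragments recovered with an antibody (IP) are sequenced beside fragments of the lysate (input). HEK293T is a human embryonic kidney line. CPSF5 and CPSF6 each had 2 IP and 2 input libraries from that line, with no treatment or genotype named in the labels, 8 libraries of the 36 in the series. The antibody was directed against the protein or against a V5 tag, with no label to say which served CPSF5 or CPSF6, and the labels do not say whether the 2 replicates were separate cultures.

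Each list holds windows of at most 100 nt that were called in both replicates, with IP and input reads summed over them. No value per library was available, so no difference below was tested. Shares are given with 95% Wilson intervals and medians with 95% order-statistic intervals. These cover counting error over windows or genes only, and adjoining windows of a gene are not independent. The listed CPSF5 windows held 2091353 IP and 305082 input reads and the CPSF6 windows 8891672 and 1548461. The median window had 31 IP reads in each list. Absence of a window from a list can mean no enrichment or too few reads to call it, which these tables do not tell apart. No protein measurement was used, so the identity of the precipitated protein was not checked.

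The sites printed below were picked for holding TGTA, from windows whose sequence could be read, so they are not typical of the lists. Of the 188891 windows, 1558 lay wholly inside a RefSeq promoter interval (GRCh38.p14), and the GC content of all 1558 equalled the deposited value within 0.01 points. Only 48 of the 38925 3' UTR windows were among them, all inside the 300 bases of a promoter, so they are not a sample of the lists. In these, TGTA, the DNA form of the CFIm element, was searched on the transcribed strand in windows of at least 50 bases. It occurred in 7 of 19 windows of CPSF5 only, 1 of 6 in both lists and 3 of 23 of CPSF6 only. For comparison, 17.3% of 105348 stretches of 100 bases from all promoters held it, and 17.1% on the other strand. A poly(A) signal, AATAAA or ATTAAA, occurred in 6, 1 and 2 of the same windows. The counts are too small to order the sets. Each site is a 30-base stretch of a 3' UTR window, 5' to 3', with TGTA in capitals. MCL1 encodes an anti-apoptotic BCL2 family protein, and both of its sites came from CPSF5-only windows, with 81 and 38 CPSF5 IP reads against 2 and 7 input reads. The JPT1 site was in a window of both lists, with 15 CPSF5 and 19 CPSF6 IP reads against 4 input reads each. CREBZF, a bZIP transcription factor, had a CPSF6-only window with 322 IP and 38 input reads.
MCL1, chr1:150574558-150574587, minus strand, CPSF5 only: acaaccaacattaattTGTAgttggtccta
MCL1, chr1:150574665-150574694, minus strand, CPSF5 only: accccccacagaaTGTAcatgaaacactag
JPT1, chr17:75136068-75136097, minus strand, both lists: caaatccaagagaTGTAcagtcaggctcaa
CREBZF, chr11:85663775-85663804, minus strand, CPSF6 only: aagtttgacatggTGTAagggagttgaaag

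Most genes of each list were also in the other list, but most windows were not. They shared 6351 genes, which was 92.0% of the CPSF5 genes (91.3 to 92.6) and 66.7% of the CPSF6 genes (65.8 to 67.7). As background, 84.2% of the genes of the 9 lists were in the CPSF6 list and 61.1% in the CPSF5 list, and of the genes of the other 7 lists 84.4% and 61.4%. The gene shares were thus not far above background. With the CPSF6 list shortened to the CPSF5 length they were 68.3% and 69.2%, to which these background shares do not apply. Only 5468 windows were in both lists, 14.1% of the CPSF5 windows (13.7 to 14.4) and 3.52% of the CPSF6 windows (3.43 to 3.61). The share of CPSF5 windows depended strongly on the lists used: it was 1.68% with the CPSF6 list shortened to the CPSF5 length, 5.87% at a q-value of at most 0.05 and 30.3% where windows within 100 nt counted as shared. CPSF5 windows made up 6.46% and CPSF6 windows 25.9% of the windows of the 9 lists. Of the windows in the lists of the remaining 7 proteins, 1.82% were in the CPSF5 list and 19.2% in the CPSF6 list. Among the 6351 genes of both lists, 2434 had a window in both and 3917 had none. Genes of the CPSF5 list alone numbered 553, with a median of 2 windows, and genes of the CPSF6 list alone numbered 3168, with a median of 5.

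Within the same genes CPSF5 was listed mainly in 3' UTRs and CPSF6 mainly in coding sequence and introns. Classes follow the deposited feature types, and deep introns are intron windows not marked as near a splice site. Of the 37047 CPSF5 windows in genes of both lists, 78.9% lay in a 3' UTR (78.5 to 79.3), 6.14% in coding sequence (5.90 to 6.38) and 5.52% in deep introns (5.29 to 5.76). Of the 124239 CPSF6 windows in those genes, 7.43% lay in a 3' UTR (7.29 to 7.58), 47.9% in coding sequence (47.6 to 48.2) and 23.6% in deep introns (23.4 to 23.9). The windows next to 3' splice sites were 0.175% of the CPSF5 and 4.13% of the CPSF6 windows. Stop codon windows were 2.76% and 2.34%, and lncRNA exon windows 1.60% and 1.71%.

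**Figure D1:**
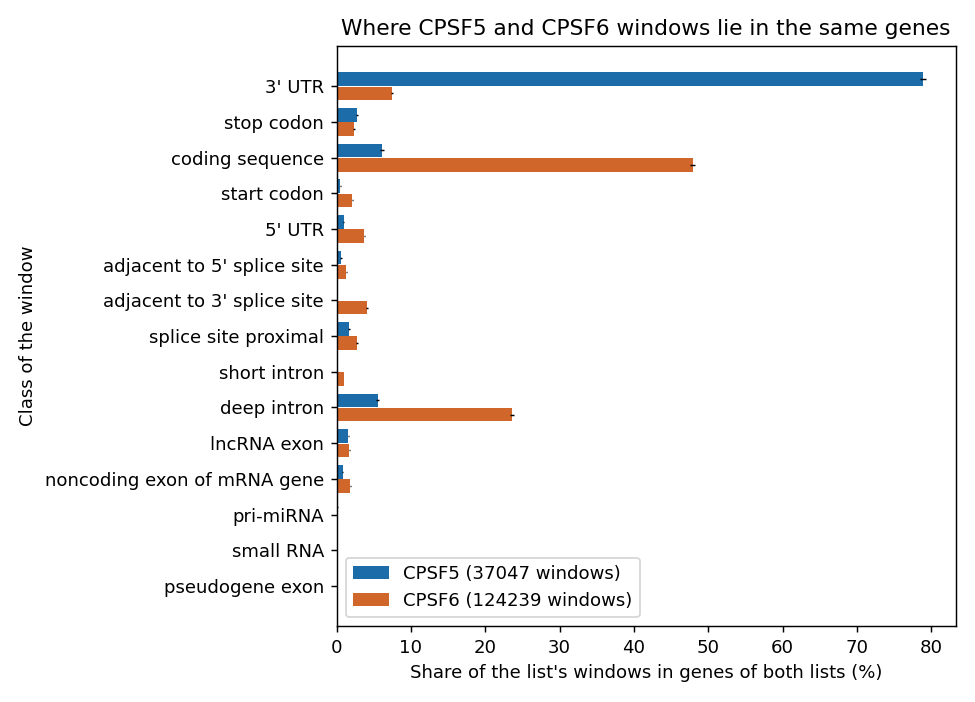
Horizontal bars give the share of each list's windows, in percent, that falls in each of 15 classes, for genes in both lists, with CPSF5 in blue, CPSF6 in orange and 95% Wilson intervals as error bars. The 3' UTR bar is 78.9% for CPSF5 and 7.43% for CPSF6, and the coding bar is 6.14% and 47.9%.

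The split held gene by gene. The 3' UTR share of a gene's windows was higher for CPSF5 in 5541 of the 6351 genes (87.2%, 86.4 to 88.0), higher for CPSF6 in 193, and equal in 617, of which 547 had no 3' UTR window of either protein. In 5193 genes CPSF5 had a 3' UTR window and CPSF6 a coding window, and in 1799 all CPSF5 windows and no CPSF6 window lay in the 3' UTR. The lists had no class in common in 2173 genes. Both proteins had a 3' UTR window in 2887 genes and both a coding window in 1069.

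Where the lists met depended on the class, in the same order of classes as for the other 7 lists together. Of CPSF5 windows in coding sequence, 49.6% were also CPSF6 windows (47.6 to 51.7), against 9.72% of CPSF5 windows in 3' UTRs (9.39 to 10.1), 42.7% at stop codons and 7.998% in deep introns. Of CPSF6 windows, 26.4% of those in 3' UTRs were also CPSF5 windows (25.6 to 27.2), against 12.7% at stop codons, 1.62% in coding sequence and 0.460% in deep introns. These shares were read against the other 7 lists together. Of their 3' UTR windows 23.3% were in the CPSF5 list, of their stop codon windows 13.3%, of their coding windows 1.82% and of their deep intron windows 0.221%. The CPSF6 list held 25.6%, 52.2%, 56.3% and 2.52% of the same windows. Its shares of CPSF5 windows were below this background in 3' UTRs, at stop codons and in coding sequence, and above it in deep introns. The CPSF5 shares of CPSF6 windows were slightly above background in 3' UTRs, slightly below at stop codons and in coding sequence, and above in deep introns. Of the 290207 deep intron windows in this background, 271124 were GRB2 windows, so its deep intron shares mostly describe GRB2. For 3' UTRs the share of CPSF6 windows that CPSF5 also held, 26.4%, was above that of RNPS1 (18.1%) and GRB2 (14.4%) and below that of EIF4B (39.0%) and MBNL2 (31.3%). RNPS1, an exon junction complex factor, had 57.6% of its 3' UTR windows in the CPSF6 list, and CPSF5 had 9.72%. In deep introns the CPSF6 list held 7.998% of the CPSF5 windows (6.91 to 9.24), 58.4% of the RNPS1 windows and 12.1% of the EIF4B windows. It also held 82.5% of the RBM22, 12.2% of the RBM10, 7.07% of the MBNL2 and 0.292% of the GRB2 deep intron windows. The CPSF5 list held 0.460% of the CPSF6 deep intron windows and 0.144% of those of GRB2. For RBM10, EIF4B, MBNL2, RBM22 and RNPS1 it held 4.63%, 2.50%, 2.37%, 2.26% and 0.502%. LGALS3 had only 29 such windows.

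The other lists also differed between the sets. RNPS1 windows made up 25.4% of the windows of the 9 lists. They covered 4.45% of the CPSF5-only windows, 45.4% of the shared windows and 56.7% of the CPSF6-only windows. For MBNL2 the shares were 8.41%, 27.2% and 9.91%, and for EIF4B 7.57%, 30.1% and 13.9%. Windows were ranked within each list by the lower of the authors' log2 enrichments over the replicates. The model behind that enrichment is not given in the sources used here. In this ranking shared windows sat low in each list. Their median percentile was 32.0 in the CPSF5 list and 30.2 in the CPSF6 list. In coding sequence it was 16.9 and 34.5, in 3' UTRs 46.1 and 29.6, and in the 20 shared pri-miRNA windows 86.7 and 29.4. Shared windows had more input reads than the rest, with a median of 7 against 4 for CPSF5-only windows and 9 against 5 for CPSF6-only windows in genes of both lists.

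The same annotated stretch of RNA was often listed for both proteins without a window in common. Both had windows in 2858 3' UTRs, 45.7% of the CPSF5 and 66.1% of the CPSF6 3' UTRs, and 1633 of these (57.1%) held a shared window. Coding exons listed for both numbered 1169, or 60.4% of 1934 for CPSF5 and 2.71% of 43112 for CPSF6, and 1013 of them (86.7%) held a shared window. In deep introns 488 were listed for both and 110 (22.5%) held a shared window.

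In shared windows the balance of reads turned with the class. IP reads are raw sums, so the ratio of CPSF5 to CPSF6 reads was read beside the ratio of input reads (1 read added) of the same windows. In 2975 shared 3' UTR windows the median was 38 CPSF5 and 31 CPSF6 IP reads, a median log2 ratio of 0.28 (quartiles -0.46 and 1.09), and CPSF5 had more reads in 1738. In 1171 shared coding windows the medians were 26 and 54, the log2 ratio was -1 (quartiles -1.58 and -0.42), and CPSF5 had more reads in 144. At stop codons the log2 ratio was -0.59, at start codons -1.20 and in 5' UTRs -1.17, with CPSF5 higher in 111 of 462, 8 of 100 and 7 of 146 windows. In these 5 classes of mRNA windows the input log2 ratio ran from -0.20 at stop codons to -0.35 in 5' UTRs, with -0.32 in 3' UTRs and -0.22 in coding sequence, so it did not turn with the class as the IP ratio did. Across all 5468 shared windows, Pearson's r of log2 IP reads was 0.40 and that of log2 input reads 0.79. These points share genes and adjoining positions, and the correlations are descriptions.

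**Figure D2:**
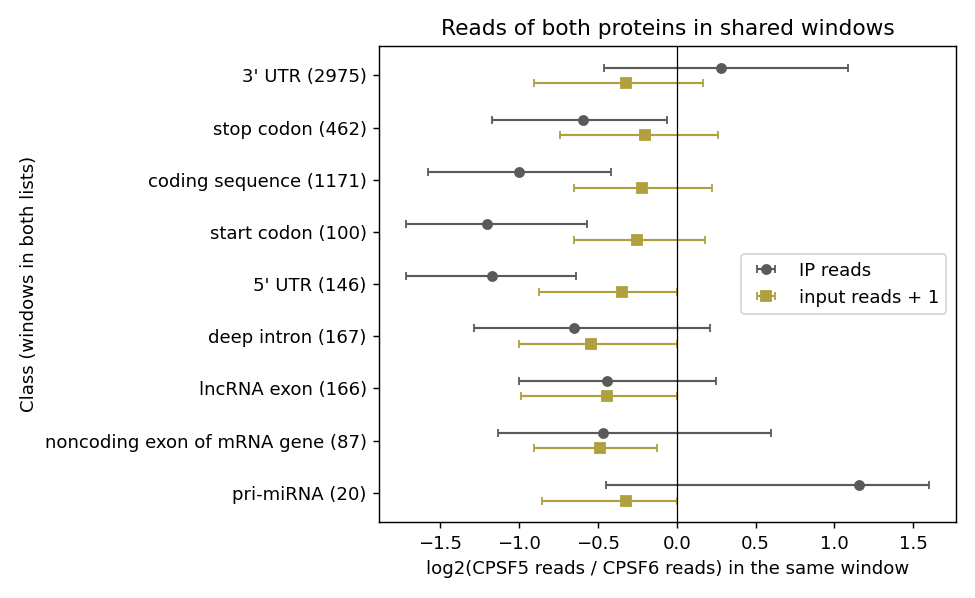
Points give the median log2 ratio of CPSF5 to CPSF6 reads in the same shared window, and bars its quartiles, by class with the number of windows in brackets, as circles for IP reads and squares for input reads with 1 added. The IP medians lie at 0.28 for 3' UTRs and at -1 for coding sequence, while the input medians of these classes lie at -0.32 and -0.22.

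Base composition separated the sets within 3' UTRs. In genes of both lists the median GC content of 3' UTR windows was 34.0% for CPSF5 only (quartiles 28.9 and 41.4), 38% in both lists (32.0 and 46.9) and 44.9% for CPSF6 only (37.4 and 52.5). Within 2079 genes that had 3' UTR windows of each list only, the CPSF5 minus CPSF6 difference in mean GC content had a median of -7.62 points (-8.13 to -7.23). CPSF5 was lower in 1702 genes and higher in 369. In the same 3' UTR, shared windows were 1.69 points above CPSF5-only windows (1.32 to 2.23, 1425 3' UTRs). Against CPSF6-only windows the shared minus CPSF6-only difference was -4.82 points (-5.45 to -4.17, 840 3' UTRs).

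The difference was not the same in every class. In deep introns the CPSF5 minus CPSF6 difference within genes was -6.23 points (-7.17 to -5.11, 566 genes) and in lncRNA exons -9.72 points (-12.2 to -6.73, 104 genes). In coding sequence it had the opposite sign, 2.63 points (1.86 to 3.21, 552 genes), with CPSF5 higher in 352 genes and lower in 200. At stop codons it was 0.77 points with an interval that included 0 (-0.42 to 6.19, 43 genes).

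**Figure D3:**
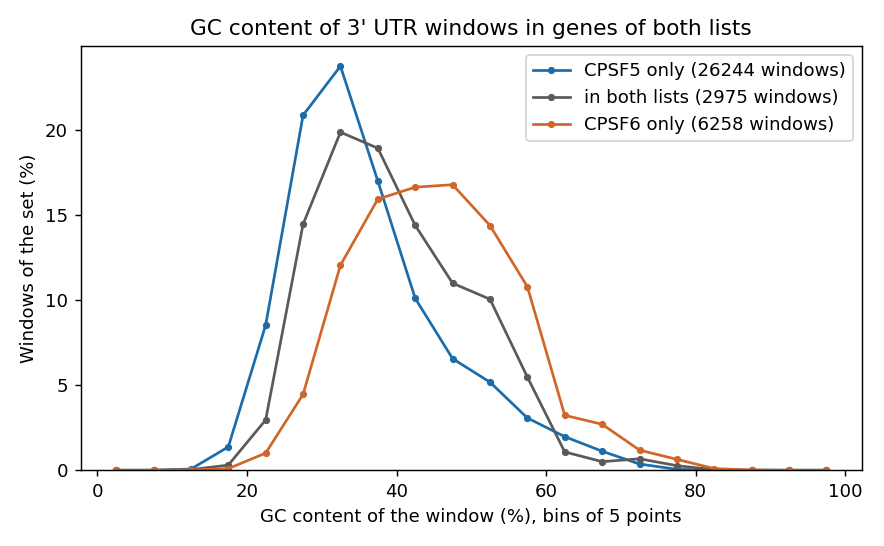
Lines give the share of 3' UTR windows, in percent of each set, by GC content in bins of 5 points, for windows of CPSF5 only, in both lists and of CPSF6 only in genes of both lists. The medians are 34.0%, 38% and 44.9%.

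Position within the same 3' UTR also differed. In the 2858 3' UTRs listed for both, the median CPSF5 position lay downstream of the median CPSF6 position in 1922 (67.2%, 65.5 to 68.9), at the same place in 169 and upstream in 767. The median offset was 198.5 nt downstream (192 to 241.5). With windows of 1 list only, CPSF5 lay downstream in 1420 of 1950 3' UTRs (72.8%), by a median of 422 nt. Several other lists gave like or higher values against CPSF5. CPSF5 lay downstream of RNPS1 in 78.7% of 2035 3' UTRs, of EIF4B in 73.4% of 1501 and of MBNL2 in 69.6% of 2274. In fewer 3' UTRs, it was downstream of RBM22 in 65.8% of 146 and of LGALS3 in 61.6% of 73. For RBM10 the share was 52.7% of 220 and for GRB2 43.3% of 335. CPSF6 lay downstream of RNPS1 in 43.8% and upstream in 25.5% of 2537 3' UTRs, with a median offset of 0 nt.

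Distances were taken to the end of the RefSeq gene, which matched 15879 of 16331 CPSF5 and 7672 of 7977 CPSF6 windows of these 3' UTRs. Windows centred within 200 nt of the end made up 13.5% of CPSF5-only (12.9 to 14.1), 12.97% of shared (11.8 to 14.2) and 3.13% of CPSF6-only windows (2.67 to 3.66). In the last 100 nt the shares were 6.52%, 3.57% and 0.960%, and at 100 to 200 nt 6.95%, 9.40% and 2.17%. In shared 3' UTR windows the log2 ratio of CPSF5 to CPSF6 IP reads was 0.77 within 200 nt of the end (371 windows), 0.35 at 200 to 500 nt, 0.28 at 500 to 1000 nt and 0.18 beyond. The input ratio lay at -0.32 or -0.36 in all 4 ranges.

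**Figure D4:**
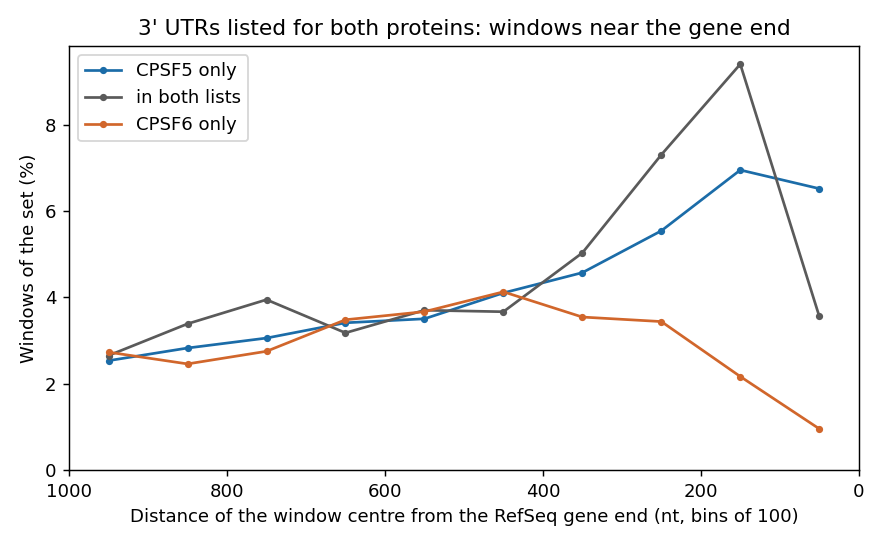
Lines give the share of each set's windows, in percent, by distance of the window centre from the RefSeq gene end in bins of 100 nt, over the last 1000 nt, in 3' UTRs listed for both proteins. At 100 to 200 nt the shares are 6.95% for CPSF5 only, 9.40% in both lists and 2.17% for CPSF6 only.

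The genes with the most shared windows carried windows outside 3' UTRs. SPEN, a large transcriptional corepressor, had 25 shared windows among 50 of CPSF5 and 140 of CPSF6, with 104 of the CPSF6 windows in coding sequence. Its listed windows summed to 3005 CPSF5 and 34546 CPSF6 IP reads against 720 and 3726 input reads. PLS3, an actin-bundling protein, had 24 shared windows among 39 and 32. It ran the other way, with 14933 CPSF5 and 2120 CPSF6 IP reads against 766 and 628 input reads, and 22 of its CPSF5 windows were coding. BCOR, a corepressor of BCL6, had 17 shared windows among 42 and 81, and 2410 against 10191 IP reads.

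Of the 5 genes with the most CPSF5-only windows and no shared window, 4 had CPSF5 windows mainly in the 3' UTR. LNPEP, a membrane aminopeptidase, had 58 CPSF5 windows, all in the 3' UTR, and 6 CPSF6 windows, 5 of them coding. MIB1, a ubiquitin ligase of Notch signalling, had 34 of 36 CPSF5 windows in the 3' UTR and 22 coding and 28 deep intron windows among 58 of CPSF6. SOAT1, which esterifies cholesterol, had 33 of 34 CPSF5 windows in the 3' UTR and 2 CPSF6 windows. KCTD12 had 32 CPSF5 windows and 1 CPSF6 window. SGO1, a protector of centromeric cohesion, departed from the 3' UTR pattern with 29 of 31 CPSF5 windows in a deep intron and 16 of 22 CPSF6 windows in coding sequence.

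In the 5 genes with the most CPSF6-only windows and no shared window, the CPSF6 windows were mainly in deep introns. DOCK3 had 357 CPSF6 windows, 301 in deep introns, and 3 CPSF5 windows. SPIDR, GPHN, FAF1 and FHIT had 263, 253, 230 and 227 CPSF6 windows, of which 247, 237, 206 and 223 were in deep introns, and between 1 and 5 CPSF5 windows each.

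In genes of the CPSF5 list alone, 78.5% of the windows lay in 3' UTRs, 4.83% in coding sequence and 2.36% in deep introns. In genes of the CPSF6 list alone, 6.56% lay in 3' UTRs, 40.2% in coding sequence and 22.3% in deep introns. SFT2D2, C1orf198, CMTM6, LIX1L and APH1A were in the CPSF5 list only, with 37, 22, 21, 19 and 18 windows, of which 35, 22, 18, 18 and 11 lay in the 3' UTR. ALMS1, a centrosomal protein, UBR4, a ubiquitin ligase, and POLE, the catalytic subunit of DNA polymerase epsilon, were in the CPSF6 list only, with 162, 126 and 120 windows, of which 108, 100 and 65 were coding. NBPF20 and NBPF19 had 148 and 133 CPSF6 windows, but they are near-identical copies of one family and reads may have been split between them.

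The shared windows with the most reads were in abundant RNAs. MT-RNR1, the small mitochondrial ribosomal RNA, had a window at chrM:674-770 with 8200 CPSF5 IP and 8229 input reads and 20083 CPSF6 IP and 3393 input reads, listed for 6 of the other 7 proteins. A further MT-RNR1 window, at chrM:1259-1355, had 6964 and 17609 IP reads. MT-RNR2, the large mitochondrial ribosomal RNA, had 7317 and 22544 IP reads against 6919 and 6171 input reads in a window at chrM:2915-3011. RNU2-4P, a copy of the U2 small nuclear RNA gene whose reads may belong to other copies, had 3317 and 1245 IP reads against 1061 and 1145. MALAT1, a nuclear noncoding RNA, had 960 and 1281 against 669 and 652.

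The RNAs of CFIm itself differed between the proteins. NUDT21, which encodes CPSF5, had 16 CPSF5 windows, 13 in the 3' UTR, and 3 CPSF6 windows, with no shared window and 1097 against 98 IP reads. The CPSF6 RNA had 35 CPSF5 and 69 CPSF6 windows and 17 shared ones, with 23 and 11 in the 3' UTR and 3057 against 5466 IP reads. CPSF7 had 7 and 26 windows, none shared, with 6 and 7 in the 3' UTR. If a tagged copy of CPSF5 or CPSF6 was expressed, its RNA would add to the reads of that gene, and whether it was is not stated.

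The other 3' end processing genes are read against 61.1% of all listed genes in the CPSF5 list and 84.2% in the CPSF6 list, which held more windows throughout. Of 8 genes of the CPSF complex, which reads the poly(A) signal and cuts, 6 were in the CPSF5 list with 25 windows, 18 in 3' UTRs, and 8 in the CPSF6 list with 299 windows, 191 of them coding. RBBP6, one of them, had 8 CPSF5 and 92 CPSF6 windows, 5 shared. Of 6 genes of CstF and CFIIm, which bind downstream of the cut, 4 had 10 CPSF5 windows and 6 had 122 CPSF6 windows. PCF11 had 5 and 61 windows, 2 shared. Of 5 genes of poly(A) polymerases and poly(A)-binding proteins, 4 were in each list under their own name, with 20 and 85 windows. PABPN1 was listed under a name joined with a readthrough gene, with 3 and 12 windows.

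Of 13 genes whose poly(A) sites are reported to respond to CFIm, 9 were in the CPSF5 list and 8 in the CPSF6 list, with 8 in both. The 13 include genes with no window in either list. The background of 61.1% and 84.2% counts only genes listed for at least 1 of the 9 proteins, so it is not a like one. Of their 100 CPSF5 windows 94 were in 3' UTRs, a class that made up 78.9% of CPSF5 windows in genes of both lists. Of their 191 CPSF6 windows 24 were in 3' UTRs and 89 were coding. VMA21, a chaperone for assembly of the vacuolar ATPase, had 21 CPSF5 windows with 1623 IP reads and 1 CPSF6 window with 33. GSK3B, a kinase of Wnt and insulin signalling, had 19 CPSF5 3' UTR windows, 3 CPSF6 3' UTR windows and 38 CPSF6 deep intron windows. PAK2 had 19 and 2 windows in its 3' UTR, with none shared. DICER1, the nuclease that cuts miRNA precursors, had 13 and 7 in the 3' UTR and 1 and 55 in coding sequence. CCND1, encoding cyclin D1, had 2 CPSF5 windows and no CPSF6 window. TIMP2, ERCC6, IGFBP3 and GLIPR2 had no window in either list.

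SR protein genes encode splicing factors. Of 12 such genes, 11 were in each list under their own name, against 61.1% and 84.2% of all listed genes, and 10 had a shared window, with 75 of 115 CPSF5 and 61 of 276 CPSF6 windows in 3' UTRs. SRSF2 had 9 shared windows and 3036 CPSF5 against 3004 CPSF6 IP reads. SRSF11 had 1410 against 15929 IP reads and 3 shared windows, and SRSF10 had 11 and 17 windows in the 3' UTR, 2 of its windows shared. SRSF1 was listed under a joined name with 14 CPSF5 and 24 CPSF6 windows, 14 and 13 of them in the 3' UTR and 11 shared. The 5 genes of the exon junction complex were in each list, against the same 61.1% and 84.2%, with 40 and 71 windows and 15 shared.

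The 6 long noncoding RNAs looked up were all in both lists, against 61.1% and 84.2% of all listed genes. All 6 had a shared window, and which protein had more windows differed between them. NORAD, a cytoplasmic RNA that binds Pumilio proteins, had 45 CPSF5 and 10 CPSF6 windows, 9 shared, and 4607 against 818 IP reads. NEAT1, the scaffold of paraspeckles, had 32 and 5, with all 5 CPSF6 windows shared. MALAT1 had 5 and 26, SNHG1 5 and 11 and GAS5 1 and 4 windows. TUG1 had 14 and 61 windows, of which 12 and 54 were classed as 3' UTR. Replication-dependent histone mRNAs end in a stem-loop in place of a poly(A) tail. Of 45 such genes 19 were in the CPSF5 list and 24 in the CPSF6 list, 15 in both. The 45 include genes with no window in either list. The shares of 61.1% and 84.2% count only genes listed for any of the 9 proteins, so they are not a like background. Reads of the histone genes may be split between near-identical copies.

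In shared windows of primary miRNA transcripts CPSF5 more often had the higher IP reads. The pri-miRNA class held 78 CPSF5 and 58 CPSF6 windows, of which 20 were shared, from 10 genes. In these the median log2 ratio of CPSF5 to CPSF6 IP reads was 1.15 (quartiles -0.45 and 1.60), with CPSF5 higher in 13. Windows of the same gene are not independent. In MIR3613, CAPN15:MIR3176 and FTX:MIR545:MIR374A CPSF6 was higher in every shared window. Microprocessor cuts hairpins from such transcripts, and the mature miRNA pairs with targets through its seed. The genes and hairpins named in this and the next paragraphs were chosen after their values were seen, apart from MIR17HG. Let-7i had 7 CPSF5 windows with 1556 IP reads and 31 input reads and 3 CPSF6 windows with 247 and 27, all 3 shared. SKA2:MIR301A had 9 windows with 997 IP reads for CPSF5 and 1 with 17 for CPSF6. ZRANB2:MIR186 and HUWE1:MIR98 had 6 and 7 CPSF5 windows and no CPSF6 window, and DNAJC5:MIR941-2 had 8 CPSF6 windows and no CPSF5 window.

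Shared windows upstream of the let-7i hairpin, which starts at position 62603686, were read from RefSeq (GRCh38.p14) where a promoter interval covered them. The one nearer to the hairpin, at chr12:62603486-62603585, had 451 CPSF5 and 116 CPSF6 IP reads, a GC content of 73% and 0 TGTA. The one printed below lay at chr12:62603386-62603485 on the plus strand and had 131 CPSF5 and 46 CPSF6 IP reads. Its GC content was 69%, and it held 1 TGTA, in capitals. The hairpin of miR-301a held UGUA, in capitals, and that of let-7i did not. Of all 1562 RefSeq hairpins 24.6% held UGUA, and of 26 hairpins in pri-miRNA genes of either list 9 did.
let-7i upstream window: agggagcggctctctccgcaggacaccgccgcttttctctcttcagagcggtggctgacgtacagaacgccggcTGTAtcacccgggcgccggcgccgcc
miR-301a hairpin: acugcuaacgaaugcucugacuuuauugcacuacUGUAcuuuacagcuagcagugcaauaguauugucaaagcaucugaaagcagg

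Hairpins were then counted in windows of any class. Any overlap counted, so a window could lie mostly outside its hairpin. A CPSF5 window overlapped 61 and a CPSF6 window 81 of the 1562 hairpins on the same strand, 27 of them in common, or 44.3% and 33.3% of each. Those are 3.91% and 5.19% of the hairpins, against 4.16% for RNPS1, 2.75% for EIF4B and 1.22% for GRB2. All 27 held a shared window, CPSF5 had more IP reads in 21 and more input reads in 13. These hairpins are not independent, as 6 lie in MIR17HG and neighbouring hairpins can count the same window. The reads of a hairpin were summed over all its overlapping windows of a list, including windows not shared. MIRLET7A1 had 702 CPSF5 and 146 CPSF6 IP reads against 16 and 22 input reads. MIR222 had 383 and 206 against 14 and 27. MIR3618, in the 5' UTR of DGCR8, which encodes the RNA-binding subunit of Microprocessor, had 168 and 198 against 16 and 11.

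MIR17HG, host of the miR-17-92 cluster and 1 of the 5 genes with the most shared windows, had 43 CPSF5 and 24 CPSF6 windows, 20 of them shared. Its windows summed to 13837 CPSF5 and 2217 CPSF6 IP reads against 941 and 676 input reads. The window overlapping MIR17 spanned 59 to 155 nt from the start of the first hairpin, and the hairpin 0 to 84 nt. That window had 1818 and 133 IP reads against 34 and 30 input reads. The window overlapping MIR19A, at 348 to 445 nt against 286 to 368 nt for the hairpin, had 1433 and 95 against 19 and 22. For MIR92A1, at 709 to 787 nt, the window at 638 to 735 nt had 315 and 73 against 3 and 1. The rest of these hairpins lay in no listed window. In all 6 hairpins of the cluster the overlapping windows were shared and had more CPSF5 reads. In the 4 shared windows between 3313 and 3975 nt from the start of the first hairpin CPSF6 had more reads, with 38 CPSF5 and 178 CPSF6 IP reads in the window at 3313 nt. A mature miRNA of each hairpin is shown with the seed, bases 2 to 8, in capitals, because those shown hold 2 pairs that share one.
miR-17-5p: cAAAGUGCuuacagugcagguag
miR-20a-5p: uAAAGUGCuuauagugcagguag
miR-18a-5p: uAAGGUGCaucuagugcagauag
miR-19a-3p: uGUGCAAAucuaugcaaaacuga
miR-19b-3p: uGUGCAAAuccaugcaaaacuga
miR-92a-3p: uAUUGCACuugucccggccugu
miR-17-5p and miR-20a-5p shared a seed, as did miR-19a-3p and miR-19b-3p.

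**Figure D5:**
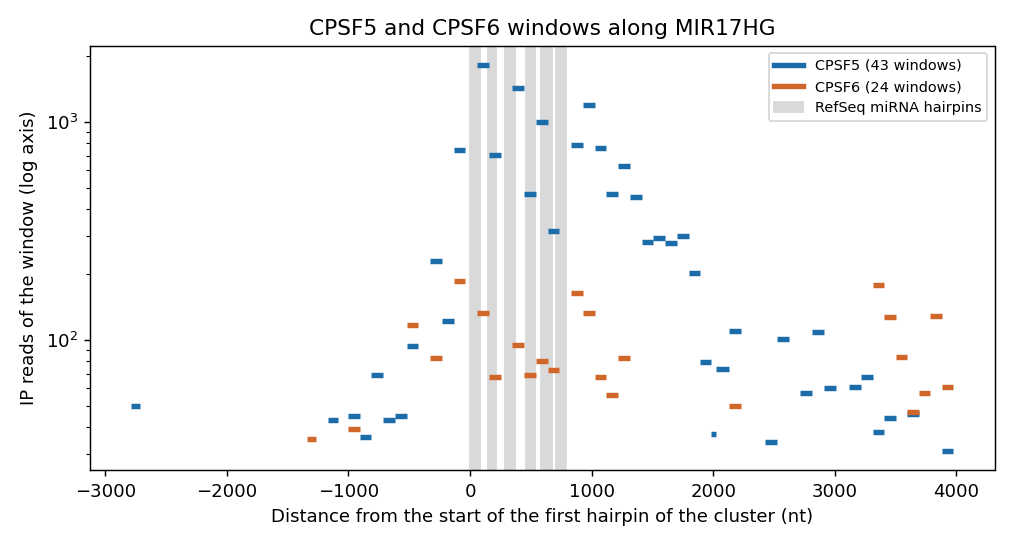
Each bar is a listed window along MIR17HG, drawn at its IP reads on a log axis against the distance in nt from the start of the first hairpin, with CPSF5 in blue, CPSF6 in orange and the 6 RefSeq hairpins as grey bands. Among windows that overlap a hairpin, most of them only in part, CPSF5 windows reach 1818 reads and CPSF6 windows stay at or below 133.

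Of the shared coding windows, the 1 with the highest ratio of CPSF5 to CPSF6 IP reads, also chosen after its value was seen, was in WNK1, a kinase of ion transport. It lay at chr12:754136-754229 and had 2185 CPSF5 and 44 CPSF6 IP reads against 14 and 5 input reads. The authors' log2 enrichment for CPSF5 there ranged from 6.15 to 9.15 over the replicates, and the window was listed for 5 of the other 7 proteins.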

How the data were processed

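For each protein the authors deposited 1 table of reproducibly enriched windows, with reads summed over 2 replicates. The deposited counts are whole-number IP and input reads per window. The deposited GC fraction is printed as a percentage. The deposited log2 enrichment and the deposited q-value are the authors' own, with a lower and a higher value over replicates, per the file headers. The largest q-value was 0.199923, and every window was called in 2 replicates. Per the submitters' processing notes, coordinates are in hg38. Neither aligner, window caller nor annotation release is given in the sources used here. Reads outside listed windows are not in the tables, so the depth of a library is unknown.

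The 18 feature types were grouped into 15 classes. Gene identifiers that join several genes (2.25% of CPSF5 and 2.12% of CPSF6 windows) were kept as genes of their own. Intervals are 95%. Sequences were matched by coordinates to RefSeq (GRCh38.p14). Named genes were the 5 shared windows with the largest smaller IP count, the 5 genes of both lists with most shared windows, the 5 with most CPSF5-only and the 5 with most CPSF6-only windows among those with no shared window, and the 5 with most windows in each list alone. Genes of the gene lists could be named, and not all are. MCL1, JPT1, CREBZF, WNK1 and the miRNA genes other than MIR17HG fall outside this rule and were chosen after their values were seen. The members and lists were chosen with earlier results of these data known. Computation used Python 3.11.15, numpy 2.4.6, pandas 2.3.3, scipy 1.17.1 and matplotlib 3.10.9, and counting steps were tested on simulated data.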

Additional observations from a re-analysis of the deposited data

How the results depend on the processing

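Of 49 recomputed values 40 moved beyond their interval. The 3' UTR GC difference stayed negative under its 4 alternatives, and the 3' UTR share stayed higher for CPSF5 wherever it was recomputed. The shared-gene shares changed order with the shortened CPSF6 list. Read ratios, the coding GC difference and distances to gene ends were not recomputed. The share of CPSF5 windows that were shared was 5.87% at a q-value of at most 0.05, 1.68% with the CPSF6 list shortened to the CPSF5 length by the authors' enrichment, 12.7% with at least 20 IP reads, 12.3% without windows of 3 or more other lists, 30.3% where windows within 100 nt counted, and 16.6% weighted by IP reads. The share of CPSF6 windows was 1.86%, 1.68%, 3.24%, 3.14%, 7.20% and 4.62% in the same order. Shared genes were 79.5%, 68.3%, 87.9% and 91.3% of CPSF5 genes under the first 4 settings and 84.6% with at least 3 windows per gene, and 58.4%, 69.2%, 60.6% and 47.3% of CPSF6 genes at the stricter q-value, with the shortened list, with at least 20 IP reads and with at least 3 windows. The 3' UTR share of CPSF5 windows was 87.0%, 79.7%, 81.4% and 80.9% under the first 4 settings and 81.9% weighted by reads. That of CPSF6 windows was 6.09% at the stricter q-value, 4.30% with the shortened list, 5.38% weighted and 7.76% with at least 3 windows per gene. Genes with the higher CPSF5 share were 90.1% at the stricter q-value, 88.5% with at least 20 IP reads and 94.7% with at least 3 windows. The 3' UTR GC difference was -7.14, -8.20 and -9.04 points at the stricter q-value, with the shortened list and with at least 20 IP reads. CPSF5 lay downstream in 69.7%, 59.0% and 69.8% of 3' UTRs under these, and in 65.4% with at least 3 windows. The cause of these shifts was not tested.

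No paired analysis was possible because the tables hold reads summed over replicates, with no column per replicate, and for the same reason leaving out each replicate could not be run. Values describe these lists, not cultures, and windows with few reads are the least certain.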
